A study of Homo sapiens with 6 samples.

Results

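The 9 genes described here are 4 antisense RNAs (DICER1-AS1, SMYD3-AS1, BCAN-AS1 and APOBEC3B-AS1), the 4 protein-coding genes they are named after (DICER1, SMYD3, BCAN and APOBEC3B) and the long non-coding RNA LINC00342, out of 58174 genes in the deposited tables. The antisense RNAs and LINC00342 were chosen because their values differed between the groups in these same libraries, so their levels are given as a description with no test. The coding genes were chosen by name and were tested in the fit over all genes. The libraries come from LN-229, an established human glioblastoma cell line. One group of 3 libraries was treated with control-NC and the other group of 3 with sh-JMJD1C, by its usual reading a non-targeting control and a short hairpin RNA against JMJD1C, a member of the Jumonji family of histone demethylases. In both groups total RNA was enriched for the nucleus, depleted of ribosomal RNA and sequenced. Whether replicates were separate cultures is not stated, so p-values here cover the spread between libraries, which may be technical. No label gives the hairpin sequence, the time after treatment, or whether the cells were a clone or a pool.

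Antisense RNAs are transcribed from the strand opposite to another gene. Some start head to head with a coding gene from a shared promoter region, some lie inside an intron of it, and some run over its 3′ end. They are mostly non-coding and are often retained in the nucleus. Reports on single antisense RNAs describe effects on the partner gene in either direction, and many such RNAs have no known function.

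The 4 pairs had 4 different layouts in the GENCODE annotation of hg38. DICER1-AS1 (ENSG00000235706, chr14:95157645-95179933, plus strand) runs head to head with DICER1 (ENSG00000100697, chr14:95086228-95158010, minus strand), with 366 bases of overlap between the spans and 80 exonic bases in common. BCAN-AS1 (ENSG00000272068, chr1:156637783-156641004, minus strand) is a single exon of 3222 bases that ends 385 bases before the start of BCAN (ENSG00000132692, chr1:156641390-156659532, plus strand). It shares no base with BCAN and is classed there as an intergenic RNA, so the pair is divergent and antisense in name only. SMYD3-AS1 (ENSG00000226876, chr1:246108626-246113866, plus strand) lies inside SMYD3 (ENSG00000185420, chr1:245749342-246507312, minus strand), 398686 bases from its 5′ end, and shares no exonic base with it. APOBEC3B-AS1 (ENSG00000249310, chr22:38991559-38998209, minus strand) runs over the 3′ end of APOBEC3B (ENSG00000179750, chr22:38982347-38992804, plus strand), and 244 of its 691 exonic bases (35.3%) are also APOBEC3B exon. LINC00342 (ENSG00000232931, chr2:95807118-95816215, minus strand) has no coding partner by name.

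**Figure D1:**
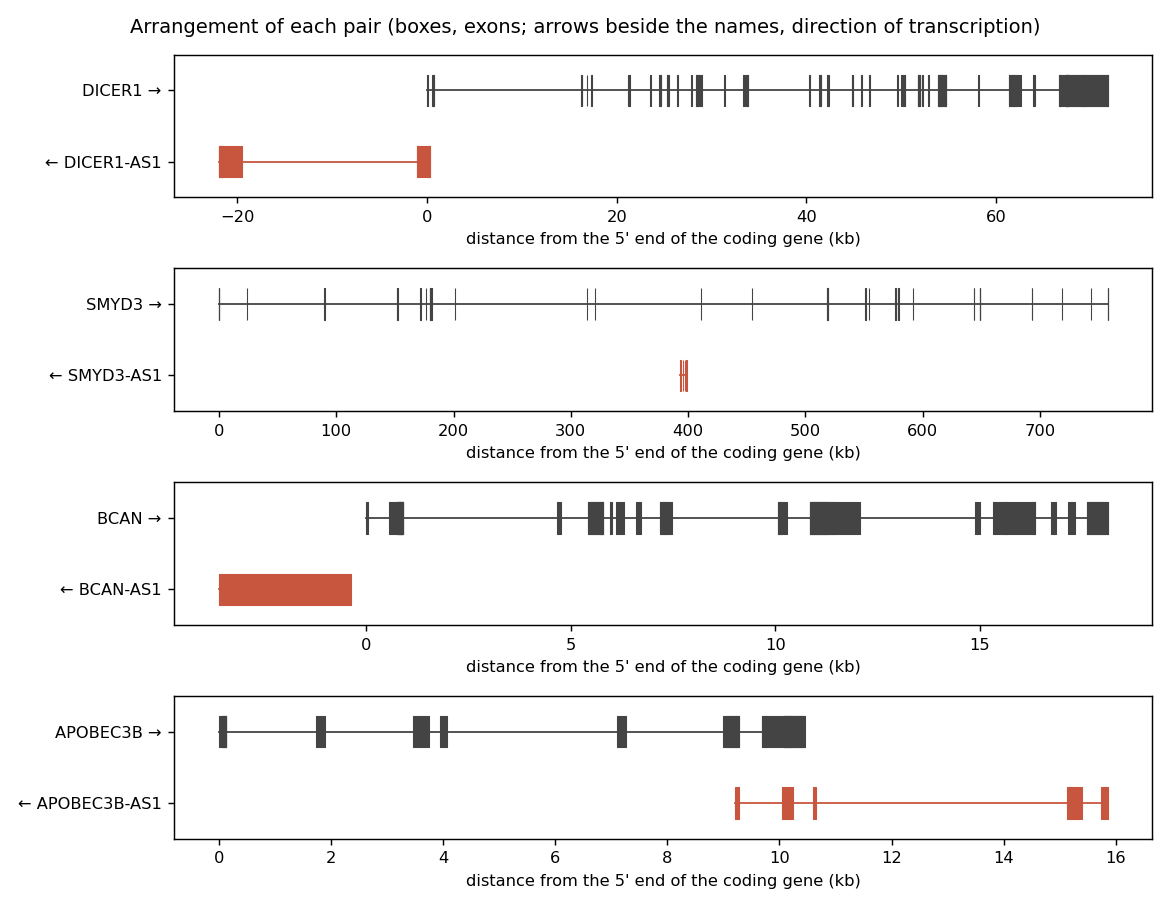
Exons of each pair as boxes along the distance in kb from the 5′ end of the coding gene, which is drawn from left to right, with the antisense RNA below it. The start regions of DICER1 and DICER1-AS1 overlap, BCAN-AS1 lies wholly before BCAN, SMYD3-AS1 lies deep inside SMYD3, and APOBEC3B-AS1 covers the last exons of APOBEC3B.

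The start regions of the first and the third layout are printed because they show how differently the pairs are built. All sequences come from RefSeq windows of GRCh38.p14 around annotated starts, which matched 5 of the 9 genes. The first lies between the RefSeq starts of DICER1 and DICER1-AS1 (chr14:95157530-95157687, 158 bases, plus strand). By these starts the genes lie 158 bases apart, whereas their GENCODE spans overlap. DICER1 had 5 such windows and SMYD3 had 2, and 1 was used for each. The other pair of sequences holds the 250 bases before the start of SMYD3-AS1 (chr1:246108376-246108625, plus strand) and before that of SMYD3 (chr1:246507280-246507529, minus strand). Capitals mark the motif CCAAT, which reads ATTGG on the opposite strand.
DICER1 to DICER1-AS1: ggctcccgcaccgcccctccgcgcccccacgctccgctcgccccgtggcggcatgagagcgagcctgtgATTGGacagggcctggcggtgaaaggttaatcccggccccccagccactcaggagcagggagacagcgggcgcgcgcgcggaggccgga
SMYD3-AS1: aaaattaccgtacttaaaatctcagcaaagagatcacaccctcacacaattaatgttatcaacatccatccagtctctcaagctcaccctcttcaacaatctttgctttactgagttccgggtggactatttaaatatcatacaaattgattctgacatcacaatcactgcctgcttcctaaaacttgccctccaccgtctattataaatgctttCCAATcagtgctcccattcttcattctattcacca
SMYD3: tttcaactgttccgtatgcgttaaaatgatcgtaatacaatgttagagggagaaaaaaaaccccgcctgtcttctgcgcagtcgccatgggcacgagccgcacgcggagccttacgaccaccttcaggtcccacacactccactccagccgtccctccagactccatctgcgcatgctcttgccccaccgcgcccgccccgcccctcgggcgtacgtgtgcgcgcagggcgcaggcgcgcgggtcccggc
The DICER1 segment has 19 CG dinucleotides and 74.7% G or C, and the 300-base windows of DICER1 and DICER1-AS1 overlap by 258 bases, so the start regions of this pair are largely one and the same sequence. The 300-base window of SMYD3-AS1 holds 3 CG dinucleotides at 38% G or C, against 34 at 65% in that of SMYD3 and a median of 14 over 35116 windows of all genes. The window of BCAN holds 31. CCAAT, searched on both strands, occurred once in the windows of DICER1, DICER1-AS1 and SMYD3-AS1 and in 34.6% of all windows. TATAAA, searched in the same way, occurred once in the SMYD3-AS1 window and in 11.5% of all windows. These matches describe the letters only.

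The libraries were shallow, which limits what can be said about RNAs of this abundance. Whole reads recovered from the deposited FPKM (fragments scaled to gene length and library total) came to 544442, 2004255 and 2960454 in control 1 to 3 and to 1676755, 1919675 and 1660561 in sh-JMJD1C 1 to 3. A count of 0 therefore allows up to 5.51 RPM (reads scaled by the library total) in control 1 and between 1.01 and 1.81 RPM in the other libraries. JMJD1C, the targeted gene, had a scaled FPKM of 3.95, 2.23 and 4.25 in the controls and of 1.02, 0.249 and 0.653 in the sh-JMJD1C libraries, a log2 difference of -1.82 ± 0.41 (SE; limma adjusted p = 0.118), and on reads it fell by 2.49 on the log2 scale (limma-voom adjusted p = 0.0253). Of the 7 markers listed for glioblastoma lines, VIM, CD44, FN1 and NES had reads in every library and OLIG2 was at 0. NES was low, with 2, 2 and 4 reads in the controls, against 20, 3 and 4 in sh-JMJD1C. GFAP had 0, 2 and 6 reads against 1, 3 and 3, and SOX2 had 0, 0 and 1 against 0, 0 and 1. Of the markers listed for other cell types, only CD3E (T cells), PECAM1 (endothelium) and MOG (oligodendrocytes) were at 0 in all libraries. CD68, listed for leukocytes, had 1, 6 and 2 reads in the controls, against 1, 2 and 2 in sh-JMJD1C. CDH5, listed for endothelium, had 0, 0 and 0 against 4, 3 and 1. Other markers on those lists had reads: the lists summed to 0.568 to 2.44 scaled RPM for leukocytes, 0 to 2.84 for endothelium, 0 to 10.2 for neurons and 7.02 to 44.8 for oligodendrocytes. The last sum was nearly all MBP, a myelin protein, with 21, 67 and 86 reads in the controls against 29, 14 and 10 (log2 -1.32, limma-voom adjusted p = 0.106). The nuclear RNA MALAT1 moved with the groups and took 1.25 to 2.40% of reads in the controls and 0.0915 to 0.292% in sh-JMJD1C. The 7SL RNA of the signal recognition particle set sh-JMJD1C 2 and 3 apart, at 15.7% and 18.5%, while sh-JMJD1C 1 at 1.18% lay within the controls' range of 0.378 to 1.77%. In control 1, the shallowest library, 25.0% of reads fell on the single gene ENSG00000281181. Their part in the results below was not tested.

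In the controls all of the chosen non-coding RNAs except APOBEC3B-AS1 were detected in each library, and in sh-JMJD1C they were at or near 0, while APOBEC3B-AS1 showed the opposite. All 9 genes passed the filter of a mean FPKM of at least 0.5, and for each chosen RNA that depends in part on the group in which it was high. Groups did not overlap in scaled FPKM for 7 of the 9 genes, beside 26.7% of all 18383 genes tested, but for 5 of those 7 the choice itself fixed this. The main test called 4 of the 5 chosen RNAs, all but DICER1-AS1, beside 0.185% of all genes, which again follows from the choice. In bulk RNA, fewer cells carrying a transcript and less RNA per cell cannot be told apart.

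**Figure D2:**
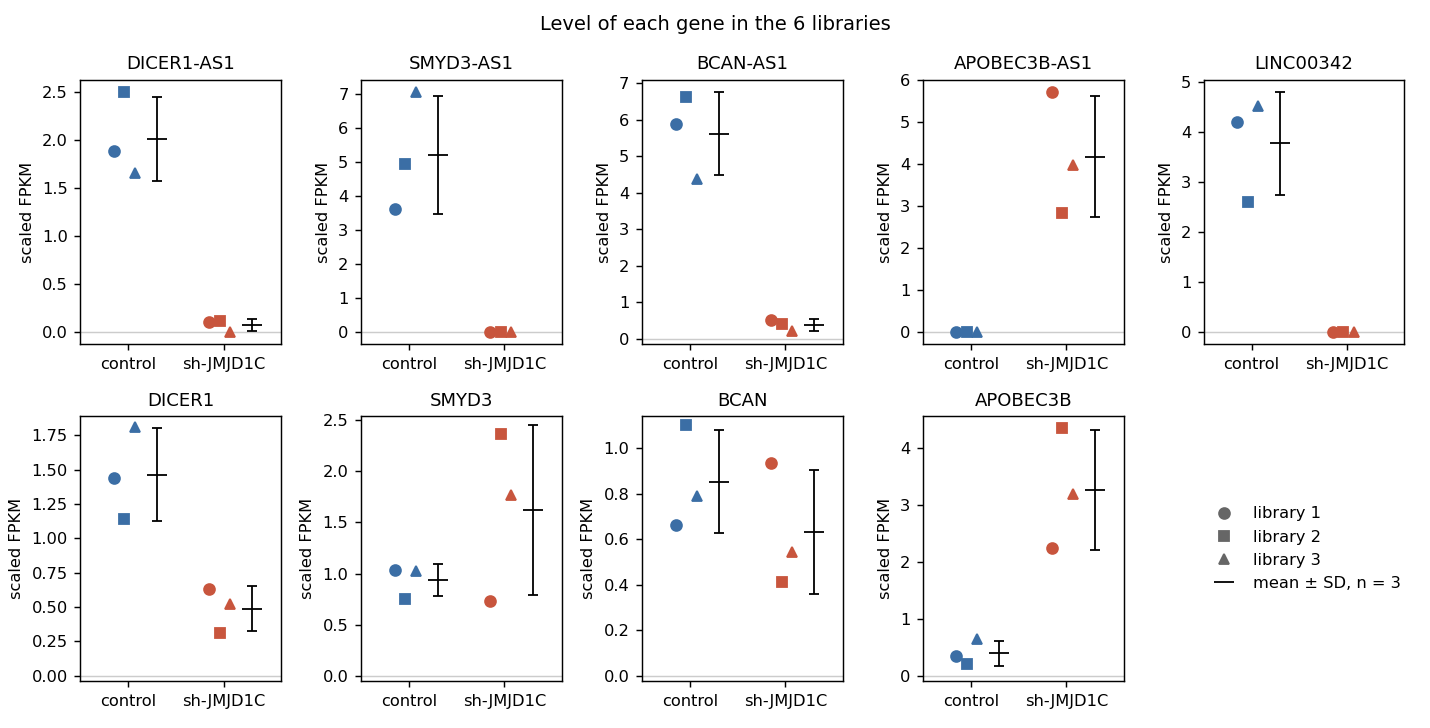
Scaled FPKM of each of the 9 genes (vertical axis, linear and separate for each gene) in the 3 control and the 3 sh-JMJD1C libraries, 1 point a library, with the group mean and SD beside the points (none drawn where all 3 libraries are at 0). The DICER1-AS1, SMYD3-AS1, BCAN-AS1 and LINC00342 points of sh-JMJD1C lie at or near 0, those of the APOBEC3B pair lie above the controls, and those of SMYD3 and BCAN overlap them.

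DICER1 encodes the RNase III enzyme that cuts microRNA precursors to their mature length. DICER1-AS1 had 5, 34 and 36 reads in control 1 to 3 and 1, 1 and 0 reads in sh-JMJD1C 1 to 3. Its scaled FPKM was 1.89, 2.51 and 1.66 in the controls, against 0.101, 0.118 and 0 in sh-JMJD1C. All 3 controls were thus above all 3 sh-JMJD1C libraries, and over each group 75 reads stood against 2, a ratio of 24.8 after scaling with a 95% counting interval of 6.63 to 209. The coding gene was lower as well, by a smaller ratio: DICER1 had 36, 146 and 372 reads in the controls, against 59, 25 and 40 in sh-JMJD1C. Its scaled FPKM was 1.44, 1.14 and 1.81 against 0.633, 0.311 and 0.522, or 1.46 ± 0.338 against 0.489 ± 0.164 (SD, n = 3 libraries each). The groups did not overlap, as was the case in this direction for 14.5% of genes. The log2 difference of DICER1 was -0.99 ± 0.36 (SE) and did not pass the test over all genes (limma, adjusted p = 0.204). The exact two-sided permutation test of the scaled FPKM gave p = 0.10, the smallest that 3 libraries against 3 allow. On the recovered reads DICER1 was at -1.54 ± 0.41 (SE; limma-voom adjusted p = 0.0504). This moved to -0.71 (adjusted p = 0.217) once the trend of fold change with gene length was removed, and to -1.95 (adjusted p = 0.0255) with library totals as the scale. The strand setting of the counting is not given in the sources used here, so reads on the 80 shared exonic bases could be counted for either gene. At the mean DICER1 read density those bases would hold 3.61 reads in the controls, against 75 reads counted for DICER1-AS1.

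BCAN encodes brevican, a chondroitin sulfate proteoglycan of the brain extracellular matrix that is abundant in gliomas. BCAN-AS1 had 9, 52 and 55 reads in the controls, against 3, 2 and 1 in sh-JMJD1C, or a scaled FPKM of 5.87, 6.62 and 4.37 against 0.525, 0.406 and 0.213. Every control was above every sh-JMJD1C library, and the ratio of 116 to 6 reads was 12.8 after scaling (95% counting interval 5.70 to 35.6). BCAN did not show a difference of that size. It had 4, 34 and 39 reads in the controls, against 21, 8 and 10 in sh-JMJD1C, with a scaled FPKM of 0.664, 1.10 and 0.790 against 0.937, 0.414 and 0.542. The groups overlapped, because sh-JMJD1C 1 lay above 2 of the 3 controls. The means were 0.852 ± 0.226 and 0.631 ± 0.273 (SD, n = 3 each; exact permutation p = 0.40), and the log2 difference was -0.27 ± 0.39 (SE; limma adjusted p = 0.70). Its direction depended on the scaling: quantile normalization gave +0.18 (limma adjusted p = 0.867).

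SMYD3 encodes a lysine methyltransferase with a SET and a MYND domain. SMYD3-AS1 had 1, 7 and 16 reads in the controls and none in any sh-JMJD1C library, with a scaled FPKM of 3.61, 4.94 and 7.05 in the controls. Set against the 3 reads over the group that a count of 0 allows, the 24 control reads gave a ratio of 5.29 after scaling. That ratio takes the 24 reads as exact and leaves out the spread between libraries, so it is not a minimum. The value of control 1 rests on 1 read. SMYD3 lay on the other side: it had 8, 30 and 65 reads in the controls, against 21, 59 and 42 in sh-JMJD1C, with a scaled FPKM of 1.03, 0.754 and 1.02 against 0.727, 2.37 and 1.77. The groups overlapped, since sh-JMJD1C 1 was below all 3 controls and the other two sh-JMJD1C libraries were above them. The means were 0.935 ± 0.157 and 1.62 ± 0.830 (SD, n = 3 each; exact permutation p = 0.40), and the log2 difference was 0.48 ± 0.41 (SE; limma adjusted p = 0.528). The difference was smaller than the spread between libraries, so an opposite movement of SMYD3 was not shown.

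APOBEC3B encodes a DNA cytidine deaminase that acts in the nucleus on single-stranded DNA and is known for the mutations it leaves in tumours. APOBEC3B-AS1 had no read in the controls and 7, 3 and 4 reads in sh-JMJD1C, where its scaled FPKM was 5.71, 2.84 and 3.97. Against the 3 reads that 0 allows over the control group, it was 7.05-fold higher in sh-JMJD1C, or 4.89-fold with library totals as the scale. These folds take the sh-JMJD1C reads as exact and leave out the spread between libraries, so they are not minima. APOBEC3B had 1, 3 and 15 reads in the controls, against 24, 40 and 28 in sh-JMJD1C, with a scaled FPKM of 0.349, 0.204 and 0.638 against 2.25, 4.35 and 3.19. Every sh-JMJD1C library was above every control, as in 12.2% of all genes tested. The means were 0.397 ± 0.221 and 3.26 ± 1.05 (SD, n = 3 each; exact permutation p = 0.10), and the log2 difference of 2.06 ± 0.37 (SE) missed the threshold (limma adjusted p = 0.0883). On the recovered reads APOBEC3B rose by 2.89 ± 0.66 (SE) on the log2 scale (limma-voom adjusted p = 0.0339). That call was lost when the length trend was removed (2.30, limma-voom adjusted p = 0.0550; 3.42% of 11857 genes were called there). It was also lost without control 1, control 3, sh-JMJD1C 2 or sh-JMJD1C 3 (limma-voom adjusted p between 0.0809 and 0.140). Of the 4 coding genes, none was called in the main test, where 0.185% of genes were, and APOBEC3B alone was called on the reads, where 5.52% of 11877 genes were.

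The values of the APOBEC3B pair may not be independent of each other, depending on the strand setting, which is not known. At the mean APOBEC3B read density, the exonic bases shared with APOBEC3B-AS1 would hold 11.8 reads over the sh-JMJD1C libraries, where 14 were counted for the antisense RNA, and 2.45 reads in the controls, where 0 were. Without the strand setting, reads of the coding and of the antisense strand cannot be told apart there. APOBEC3B also shares 37.8% of its 50-base stretches with other annotated transcripts on the same strand, most of them with a transcript assigned to APOBEC3A that runs through it, and APOBEC3A itself had no read in any library. For DICER1 and DICER1-AS1 the shared stretches on either strand came to 0.453% and 1.68%, and for SMYD3 and SMYD3-AS1 to none. BCAN shares 11.5% with transcripts on the opposite strand, 6.04% with BCAN-AS2, so some BCAN reads could stem from those RNAs, and BCAN-AS1 shares 0.0630%.

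LINC00342, a long intergenic RNA on chromosome 2, had 6, 19 and 53 reads in the controls and none in sh-JMJD1C. Its scaled FPKM was 4.19, 2.59 and 4.52 in the controls. Against the 3 reads that 0 allows over the sh-JMJD1C group it was 17.2-fold lower there. This fold takes the control reads as exact and leaves out the spread between libraries. LINC00342 shares 28.4% of its 50-base stretches with APPAT, another non-coding RNA, so reads could have been divided between them. ANKRD36C, the one coding gene within 50 kb of it, had 21, 33 and 178 reads in the controls, against 29, 3 and 9 in sh-JMJD1C. It did not pass the test on reads either (log2 difference -2.05, limma-voom adjusted p = 0.103).

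Levels of different genes were compared as scaled RPM per kb of exon. In the controls DICER1 was at 6.16 ± 1.28, BCAN-AS1 at 5.56 ± 1.24, SMYD3-AS1 at 5.10 ± 1.54 and LINC00342 at 4.26 ± 1.14 (SD, n = 3 each), and neighbours in that order did not differ beyond their spread. Lower came DICER1-AS1 at 2.98 ± 0.683, SMYD3 at 2.57 ± 0.432, BCAN at 2.16 ± 0.571 and APOBEC3B at 1.23 ± 0.652. Per kb of exon, BCAN-AS1 and SMYD3-AS1 were therefore above their coding partners in the controls and DICER1-AS1 was below its partner. The value of SMYD3-AS1 there rests on 1, 7 and 16 reads. The order of the DICER1 pair depended on the length used. In scaled FPKM, which divides by the summed length of all transcripts, the control mean was 2.02 ± 0.439 for DICER1-AS1 and 1.46 ± 0.338 for DICER1 (SD, n = 3 each). In sh-JMJD1C the order was led by APOBEC3B at 10.7 ± 3.65, followed by SMYD3 at 4.65 ± 2.45 and APOBEC3B-AS1 at 4.26 ± 1.40. DICER1 followed at 2.13 ± 0.678 and BCAN at 1.65 ± 0.682, BCAN-AS1 (0.391 ± 0.158) and DICER1-AS1 (0.112 ± 0.0985) were lower still, and SMYD3-AS1 and LINC00342 were at 0.

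The share of the antisense RNA among all reads of its pair needs no scaling between libraries. For the DICER1 pair it was 12.2, 18.9 and 8.82% in the controls, against 1.67, 3.85 and 0% in sh-JMJD1C. Summed over libraries this was 75 of 629 reads, or 11.9% (95% Clopper-Pearson interval 9.50 to 14.7%), against 2 of 126, or 1.59% (0.193 to 5.62%). The antisense RNA thus differed more between the groups than DICER1 did. For the BCAN pair the shares were 69.2, 60.5 and 58.5% against 12.5, 20 and 9.09%, with 116 of 193 reads (60.1%, 52.8 to 67.1%) against 6 of 45 (13.3%, 5.05 to 26.8%). BCAN-AS1 thus held most of the reads of its pair in each control and a minority in each sh-JMJD1C library. For the SMYD3 pair they were 11.1, 18.9 and 19.8% against 0 in all 3 libraries, with 24 of 127 reads (18.9%, 12.5 to 26.8%) against 0 of 122, which allows up to 2.46%. For the APOBEC3B pair 0 of 19 control reads, which allows up to 15.8%, stood against 14 of 106 (13.2%, 7.41 to 21.2%), so a change of share was not detectable at this depth although both levels were higher. These intervals cover counting error only, and since the antisense RNAs were chosen for their difference, the shares carry no test.

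**Figure D3:**
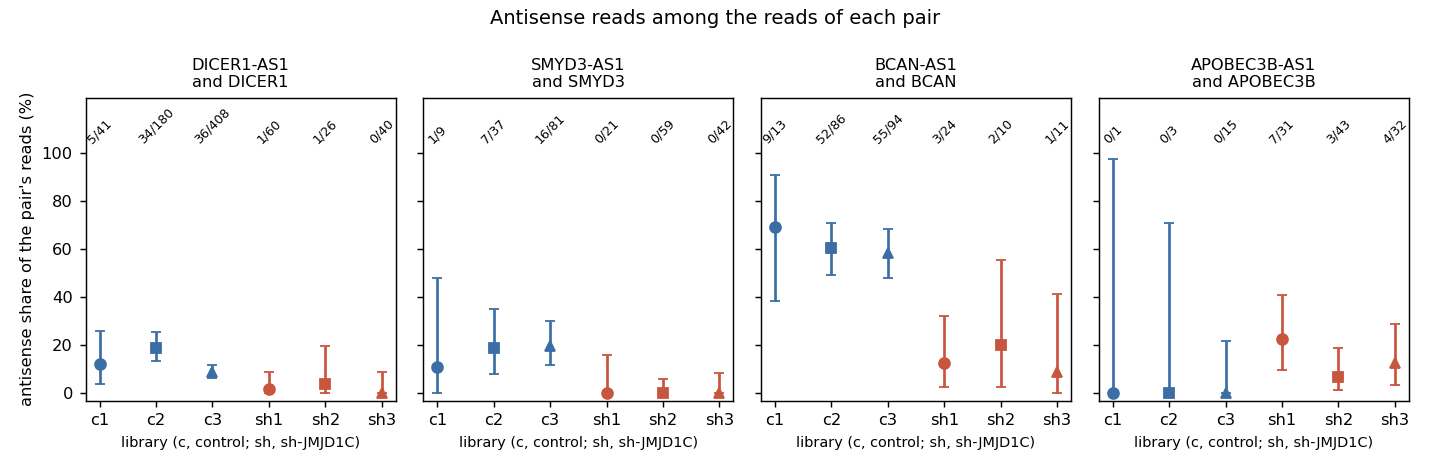
Percent of the reads of each pair that were counted for the antisense RNA, in each control and sh-JMJD1C library, with exact 95% binomial intervals. The DICER1, SMYD3 and BCAN pairs have lower shares in every sh-JMJD1C library than in any control, and the control intervals of the APOBEC3B pair are wide because they rest on 1, 3 and 15 reads.

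Read by the sign of the fold change alone, 3 of the 4 pairs moved together: both members of the DICER1 and BCAN pairs were lower, both of the APOBEC3B pair were higher, and the SMYD3 pair was split. Quantile normalization would split the BCAN pair too. Over all genes, 1780 antisense RNAs could be matched by name to a coding gene, and 606 of these pairs were measured on both sides. Of them 411 (67.8%) had fold changes of the same sign, 280 with both lower and 131 with both higher. In 89 pairs the antisense RNA was lower and the coding gene higher, as in the SMYD3 pair. With the 4 pairs left out it was 408 of 602 pairs, again 67.8%. The share was 67.1% of 155 pairs with starts within 1 kb, 66.9% of 242 with the antisense RNA inside the coding gene, and 70.1% of 204 with a partial overlap. In the same order it was 65.6, 72.9 and 77.8% on reads, of 64, 70 and 108 pairs. With the length trend removed it was 70.3, 57.1 and 60.2%, so the order of the layouts depended on the fit. Among the 606 pairs 369 antisense RNAs and 386 coding genes had a fold change below 0, as had 55.8% of all genes tested. The share differed between fits, from 62.0% on reads with the length trend removed to 80.6% on reads scaled to library totals. Both of these cover the 242 pairs with at least 60 reads for each member. The set of pairs thus changed along with the processing. Some pairs share exons, such as 100% of the exonic bases of DDIT4-AS1 and 80.2% of those of TUBA1B-AS1. Without the strand setting, reads there could be counted for either member of a pair. The part of such reads in the share of like signs was not tested.

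**Figure D4:**
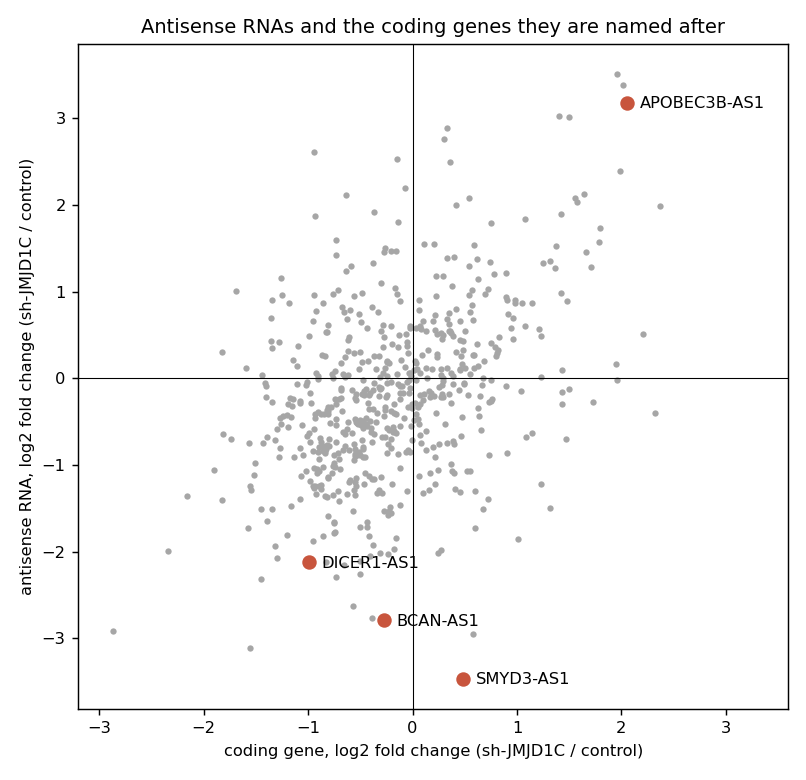
Log2 fold change (sh-JMJD1C over control, scaled FPKM + 0.5) of 606 antisense RNAs on the vertical axis against that of the coding gene each is named after on the horizontal axis, with the 4 pairs described here in red. DICER1-AS1 and BCAN-AS1 lie where both are lower, APOBEC3B-AS1 where both are higher, and SMYD3-AS1 where only the antisense RNA is lower. Fold changes of RNAs at 0 in a group depend on the added 0.5.

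The class of antisense RNAs was taken by symbol. Of 725 tested, 3 (0.414%) were called by limma, beside 0.185% of all genes. These 3 are among the 4 described here, which were chosen for their values, and with these left out 0 of 721 were called, with 120 at an unadjusted p under 0.05. Among 273 of the same class limma-voom on reads called 5 higher and 4 lower (3.30%), beside 5.52% of all genes. In the main fit the median log2 difference of the 721 antisense RNAs was -0.24, beside -0.16 for all 18383 genes. It was -0.08 for 10169 protein-coding genes and -0.55 for 871 long intergenic RNAs, the class that holds LINC00342 and, in GENCODE, BCAN-AS1. Of the long intergenic RNAs 68.8% had a fold change below 0, against 61.9% of the antisense RNAs and 55.8% of all genes.

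Genes beside the 5 chosen RNAs were looked at within 50 kb. Of 23 such genes 15 had reads and 11 were tested. The main test called 0 of them (0.185% over all genes), and limma-voom on reads called 3 of 11, APOBEC3B among them (5.52% over all genes). The second was NAXE, the epimerase that repairs damaged NAD(P)H, 43484 bases from BCAN-AS1, which rose from 268 to 735 reads over each group (log2 difference 1.94, limma-voom adjusted p = 0.0370). The third, named after its values were seen, was the uncharacterised antisense RNA ENSG00000272405 (chr1:156641666-156644887, minus strand). It starts over the 5′ part of BCAN, on the same strand as BCAN-AS1 and 662 bases from it. It had 28, 139 and 191 reads in the controls, against 26, 21 and 9 in sh-JMJD1C and fell by 2.22 on the log2 scale (limma-voom adjusted p = 0.0260; limma on FPKM adjusted p = 0.0873). BCAN-AS2, on the same strand further along BCAN, had 2, 64 and 28 reads against 12, 7 and 1 and did not pass the test on reads (log2 difference -1.69, limma-voom adjusted p = 0.228). The 3 antisense RNAs of the BCAN locus thus had fewer reads over the sh-JMJD1C group, and 1 of the other 2 was called on reads. Of coding neighbours of BCAN-AS1, HAPLN2, a link protein of brain matrix, had 3 reads in the controls and 0 in sh-JMJD1C, and NES, the intermediate filament nestin, had 8 and 27. CLMN, 2007 bases from DICER1-AS1 on the side away from DICER1, had 6, 15 and 32 reads against 19, 8 and 8, a log2 difference of -0.04 (limma-voom adjusted p = 0.962). Near APOBEC3B-AS1, APOBEC3C had 107 reads over the controls and 202 over sh-JMJD1C, and APOBEC3D had none in any library.

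Other genes of the pathways of the 4 coding genes were taken from lists chosen with earlier results of these data known. Of the 14 genes of the microRNA pathway 13 were tested and none was called in the main test. Their median log2 difference was -0.80, beside -0.16 for all genes. TARBP2, a partner of Dicer, and RAN, the GTPase of nuclear export, had positive log2 differences of 1.34 and 1.06 (limma adjusted p = 0.198 and 0.205). On reads, AGO4, an Argonaute protein that binds mature microRNAs, was the 1 gene called of 13, beside 5.52% of all genes, and fell from 23.8 ± 4.46 to 6.50 ± 2.12 scaled RPM (SD, n = 3 each), a log2 difference of -1.93 (limma-voom adjusted p = 0.0474). Of the 5 SMYD methyltransferases 4 were tested and none was called, with a median of 0.07, and SMYD1 was at 0. Of 19 lecticans and matrix partners, the group of brevican, 5 were tested and none was called, with a median of -0.07. ACAN, VCAN, HAPLN1, HAPLN4 and HAS1 were at 0. Of 11 APOBEC genes 6 were at 0 and 2 were tested, APOBEC3B and APOBEC3C. APOBEC3C, a cytidine deaminase that restricts retroviruses, was at 16.6 ± 5.17 scaled RPM in the controls and 42.9 ± 8.53 in sh-JMJD1C (SD, n = 3 each) and did not pass either test (log2 1.24, limma adjusted p = 0.157; log2 1.45 on reads, limma-voom adjusted p = 0.0626). Of 6 nuclear long non-coding RNAs 3 were tested in the main test and none was called, and on reads 3 of 4 fell: MALAT1 by 3.01, NEAT1 by 1.96 and TUG1 by 2.17 on the log2 scale (limma-voom adjusted p = 0.0109, 0.0212 and 0.0327), and KCNQ1OT1 was at 25.0 ± 7.57 and 23.8 ± 23.2 scaled RPM (SD, n = 3 each). MALAT1 and NEAT1, RNAs of nuclear speckles and paraspeckles, thus moved in the same direction as 4 of the 5 chosen RNAs. The summed level of the list was 11314 to 21935 scaled RPM in the controls and 1614 to 3228 in sh-JMJD1C, most of it MALAT1 (10194 to 20110 and 1204 to 2777).

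The coding genes whose log2 levels ran most like a chosen RNA over the 6 libraries were found among 10211 coding genes with at least 60 reads. For DICER1-AS1 they were RAD50, a subunit of a DNA break repair complex, and ERMAP, an erythroid membrane protein (Pearson's r = 0.998 each). For BCAN-AS1 RAD50 again came first (0.994). For LINC00342 they were ZC3H6, a zinc finger protein (0.998), and DSC3, a desmosomal cadherin (0.995). The 6 points of each correlation fall into the study's 2 groups and share their library depths, and 112, 133 and 225 coding genes reached r over 0.95 with DICER1-AS1, BCAN-AS1 and LINC00342.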

How the data were processed

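Total nuclear-enriched RNA of 6 libraries was sequenced. The authors deposited FPKM per gene and library, per the file headers on rising shares of the reads, and the last column, the full library, was used. The submitters' processing notes name hg38 and Bowtie 0.12.2, with no role. Counting tool, gene models and strand setting: not given in the sources used here. Of 58174 gene IDs, 57392 had a symbol and GENCODE release 29 held 57836. The FPKM that the authors deposited are whole multiples of 1 read: all values under 1000 reads came out whole within 0.05, in part by choice of length. The length divided by equalled the summed length of all annotated transcripts for 93.7% of detected genes and for all 9 genes here.

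FPKM were scaled between libraries by median ratios (over genes averaging 1 or more). Genes averaging 0.5 FPKM or more were tested on log2(scaled FPKM + 0.5), which understates changes of low genes, with limma 3.58.1 in R 4.3.3 (trend, group only, two-sided, Benjamini-Hochberg, 0.05). The number of libraries limits the precision. Alternatives were other pseudocounts, filters and scalings, libraries left out, a replicate block, and limma-voom on recovered reads (genes with at least 60 reads). Both it and the main fit were run on simulated data. The genes changed there had more reads than the chosen RNAs, and the simulated libraries otherwise shared the same composition. That run therefore does not cover the chosen RNAs or the differences between these libraries. Exact permutation tests were run on scaled FPKM of the coding genes in SciPy 1.17.1. The members and lists were chosen with earlier results of these data known. Named were the 9 genes, list genes that passed, up to 3 nearest coding neighbours within 50 kb, the 2 coding genes most correlated with each chosen RNA of at least 60 reads, JMJD1C and MALAT1. The cell type markers and further list genes were named as checks. One gene that this rule names is not reported here.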

Additional observations from a re-analysis of the deposited data

How the results depend on the processing

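The count of called genes depended on the processing. It was 34 in the main fit, 84 with a pseudocount of 0.1, 0 with a pseudocount of 1, 0 without the filter, 79 on the FPKM as deposited (26.6% higher), 2 with quantile normalization, and 0 without both libraries numbered 1. Leaving out each library in turn gave 0 to 475, with 475 without sh-JMJD1C 1 (78.1% of them higher) and 0 without any of the other 5. Limma-voom on reads called 656 (67.2% higher), 405 with the length trend removed (68.6% higher) and 1195 with library totals (26.0% higher). The main fit had 32.4% higher. Where 0 were called, between 2013 and 4407 genes had an unadjusted p under 0.05.

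Over 606 antisense and coding pairs, the share with like signs was 72.4% on the FPKM as deposited and 63.9% with quantile normalization. It was 71.9% without both libraries numbered 1 and ranged from 63.4% to 72.6% without each library in turn. Over the 242 pairs with enough reads, it was 73.1% on reads, 62.0% with the length trend removed and 80.6% with library totals.

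DICER1 was lower and SMYD3 and APOBEC3B higher under each alternative run. DICER1 passed with library totals (-1.95) and, on reads, without control 2 (-1.73) or sh-JMJD1C 1 (-1.74). With 1 library left out it ranged from -1.74 to -0.84 over both fits. APOBEC3B passed on reads (2.89), on reads with library totals (2.42) and, in fits on reads chosen after seeing the data, without both libraries numbered 1 (3.18), without control 2 (2.41) and without sh-JMJD1C 1 (3.16). With 1 library left out it ranged from 1.87 to 3.45 over both fits. BCAN turned to 0.18 with quantile normalization, and the cause was not tested. The median of all genes was -0.16 in the main fit, -0.38 on the FPKM as deposited, -0.01 with quantile normalization and -0.52 with library totals.

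Of the chosen RNAs, SMYD3-AS1 and APOBEC3B-AS1 lost their calls under 10 of 13 alternatives each, and BCAN-AS1 and LINC00342 under 15 of 23 each. They were chosen by this same contrast, so these counts describe the processing only. SMYD3-AS1, APOBEC3B-AS1 and LINC00342 had no read in a whole group, so their direction was fixed in advance.

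The fit with the replicate number as a block called 0 genes (4407 with an unadjusted p under 0.05) and changed the call of no coding gene here. Libraries of the same number correlated at 0.00891, 0.140 and 0.220 in their deviations from the group means. The highest correlations with a library of another number were 0.125, 0.125 and 0.0270. Number 1 was thus below its highest other value and numbers 2 and 3 were above theirs. Whether the numbers pair the libraries could not be settled from these values. SMYD3-AS1 and APOBEC3B-AS1 had too few reads for the fit on reads. Depth limits all values of SMYD3-AS1, APOBEC3B-AS1 and LINC00342, which rest on 24, 14 and 78 reads.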

Other observations

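Outside the 4 pairs, 11 antisense and coding pairs with at least 60 reads for each member had log2 fold changes of at least 1.5 in size and the same sign on both sides. They were chosen by these same fold changes, so whether they were called is a description and no test. Among these pairs the lowest coding gene in the main fit was SLC9A3, a sodium/proton exchanger, at a log2 difference of -2.87. SLC9A3-AS1, which lies inside it, was at -2.91, and the antisense RNA TAB3-AS2 was lower at -3.11. SLC9A3-AS1 had 108, 687 and 702 reads in the controls, against 44, 68 and 24 in sh-JMJD1C, and SLC9A3 had 44, 356 and 301 against 28, 22 and 9. In scaled RPM this was 227 ± 54.0 against 29.5 ± 15.4 for SLC9A3-AS1 and 104 ± 36.7 against 12.4 ± 5.31 for SLC9A3 (SD, n = 3 each). Neither was called in the main fit. On reads their log2 differences were -3.04 and -3.07 and both were called, beside 5.52% of all genes. They share 830 of the 4302 exonic bases of the antisense RNA.

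IGFBP7, a secreted protein that binds insulin-like growth factors, and IGFBP7-AS1, which starts within 1 kb of it, had more reads in sh-JMJD1C on both sides. IGFBP7-AS1 was at 29.9 ± 5.80 scaled RPM in the controls and 102 ± 52.9 in sh-JMJD1C, and IGFBP7 at 57.8 ± 12.0 and 228 ± 113 (SD, n = 3 each). Their log2 differences were 1.57 and 1.79 in the main fit, where neither was called. On reads they were 1.67 and 1.82, and both were called, which again follows a choice by values. They share 94 of the 1740 exonic bases of the antisense RNA.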
